A study of Mus musculus with 2 samples.

Results

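The SR splicing factors Srsf1, Srsf2, Srsf3, Srsf4, Srsf5, Srsf6, Srsf7, Srsf9, Srsf10 and Srsf11 were examined in nuclear RNA of mouse macrophages. Members were found by their gene symbol in the transcript names and joined to the gene values by gene identifier. All 10 were found among 55536 annotated genes, and together they carry 85 annotated transcripts. The RNA came from macrophages cultured from bone marrow of C57BL/6J mice, a standard primary model of these phagocytes. They had been given lipid A, the lipopolysaccharide part that activates TLR4, at 100 ng/ml for 12 h, were kept without it for 12 h, and then received 100 ng/ml again for 90 min. Nucleoplasmic RNA, which the labels also call a nuclear fraction, was depleted of ribosomal RNA and sequenced as total RNA. Both libraries belong to this single group, and other conditions or cell fractions were not analysed here, so no comparison of conditions and no p-value was possible.

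SR proteins bind exons through RNA recognition motifs and recruit the splicing machinery through a domain rich in arginine and serine. Many SR genes limit their own protein through poison isoforms, in which an extra exon or a kept intron brings a premature stop codon. Such RNA is either held in the nucleus or, once translated in the cytoplasm, destroyed by nonsense-mediated decay (NMD), so nuclear RNA is where these isoforms can be seen before that decay acts.

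Gene counts totalled 29400104 in replicate 1, which started from 1 µg of RNA, and 17789543 in replicate 2, which started from 500 ng. Although numbered as biological replicates, they share a donor entry in the labels, and their spread could be technical. The counts of the libraries differed far beyond sampling noise, with a chi-square of 150.1 per degree of freedom over 14831 genes. All 7 macrophage markers checked had at least 1 TPM, a length-corrected relative level, in both libraries, summing to 1487 TPM in replicate 1 and to 2084 TPM in replicate 2. None of the 17 markers of neutrophils, T cells, B cells or stromal cells reached 1 TPM in both, and no such list summed to more than 1.06 TPM in a library. The Ly6g, Elane, Cd3e, Trac and Pdgfra markers were listed at 0 in both libraries, whereas Cd3d averaged 2.91 TPM by the second quantification. Each library has a first and a second quantification from the authors, and values are from the first unless stated. In bulk RNA, fewer cells expressing a gene and less RNA per cell cannot be told apart.

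The exons that bring a premature stop are shown first, because they recur under several annotation labels in the results. For each gene the coding reference was its principal protein-coding isoform, and the search was for exons lying wholly inside an intron of that reference, in isoforms labelled neither protein_coding nor retained_intron. The exon with the highest TPM in such isoforms could be read in frame from the upstream coding exon in 5 genes, and an in-frame stop was met in all 5. The stretches below run from the first base of the exon to that stop codon, which is in capitals, and are transcript sequence of GENCODE M21 on GRCm38. Srsf3 has it at chr17:29039454-29039487 on the plus strand, Srsf5 at chr12:80948129-80948179 on the plus strand, Srsf6 at chr2:162932815-162932966 on the plus strand, Srsf7 at chr17:80205054-80205081 on the minus strand and Srsf11 at chr3:158024209-158024231 on the minus strand.
Srsf3-201: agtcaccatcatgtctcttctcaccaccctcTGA
Srsf5-206: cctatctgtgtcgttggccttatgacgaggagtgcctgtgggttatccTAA
Srsf6-201: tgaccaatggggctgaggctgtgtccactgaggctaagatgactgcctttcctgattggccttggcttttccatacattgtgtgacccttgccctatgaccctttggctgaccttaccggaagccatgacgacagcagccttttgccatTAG
Srsf7-203: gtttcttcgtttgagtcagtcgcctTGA
Srsf11-206: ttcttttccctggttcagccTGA

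The Srsf3 exon is 456 nt long, lies in intron 3 and ends the reading frame after 124 codons, where the coding reference has 164. In Srsf5 the exon has 376 nt, lies in intron 5 and stops the frame after 138 of 269 codons. It is the last of the 6 exons of its isoform as annotated, and this isoform is labelled processed_transcript, with no annotated stop of its own. The Srsf6 exon has 268 nt in intron 2 and stops the frame after 135 of 339 codons. The Srsf7 exon has 460 nt in intron 3 and stops the frame after 137 of 238 codons, and the Srsf11 exon has 109 nt in intron 3 and stops it after 147 of 511 codons. In Srsf3, Srsf6, Srsf7 and Srsf11 the computed stop is the stop that the annotation gives. For Srsf11 the codons are counted from the start of the coding reference, whereas the annotated frame of Srsf11-206 starts later and has 112 codons. Across all 15 NMD-labelled transcripts of the members, the annotated stop lies between 67 and 706 nt upstream of the last exon junction.

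By level, the SR genes were among the more abundant RNAs of these nuclei. They summed to 551 TPM in replicate 1 and 566 in replicate 2, with a mean of 559 ± 10.4 TPM (SD, n = 2). The replicates lay further apart as a part of protein-coding gene TPM, at 0.27% in replicate 1 and 0.19% in replicate 2. The median member had 29.8 TPM, beside 7.06 TPM over the 8512 protein-coding genes with at least 1 TPM in both libraries. Srsf5 and Srsf11 alone held 62.2% of the members' summed TPM in replicate 1 and 57.7% in replicate 2. The second quantification gave lower sums, 246 TPM in replicate 1 and 360 in replicate 2.

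Srsf5 was highest at 238 TPM in replicate 1 and 172 in replicate 2, rank 107 among protein-coding genes. Srsf11 had 105 TPM in replicate 1 and 155 in replicate 2. Srsf2 had 52.4 and 67.4 TPM in replicates 1 and 2, and Srsf3 had 48.7 and 51.0 TPM. In the first quantification these 4 genes did not overlap with one another in level. Srsf6 had 32.5 and 29.4 TPM, and Srsf10 had 24.7 and 32.7 TPM, so the order of that pair is not set by these libraries. Below them came Srsf1 with 15.4 and 23.6 TPM, Srsf7 with 13.9 and 13.9 TPM, Srsf4 with 12.6 and 12.9 TPM, and Srsf9 with 8.04 and 8.56 TPM. Apart from Srsf6 and Srsf10, no neighbours in this order overlapped in the first quantification, and Srsf9 was lowest, at rank 3819. The second quantification separated fewer of them. There Srsf5 had 97.7 and 99.9 TPM in replicates 1 and 2 and Srsf11 had 55.2 and 112.1 TPM, so Srsf11 was below Srsf5 in replicate 1 and above it in replicate 2. Srsf2, with 19.6 and 34.8 TPM, overlapped Srsf3, with 22.3 and 29.8 TPM. Srsf1, with 7.22 and 13.8 TPM, overlapped both Srsf10, with 13.2 and 24.8 TPM, and Srsf7, with 6.96 and 10.6 TPM.

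**Figure D1:**
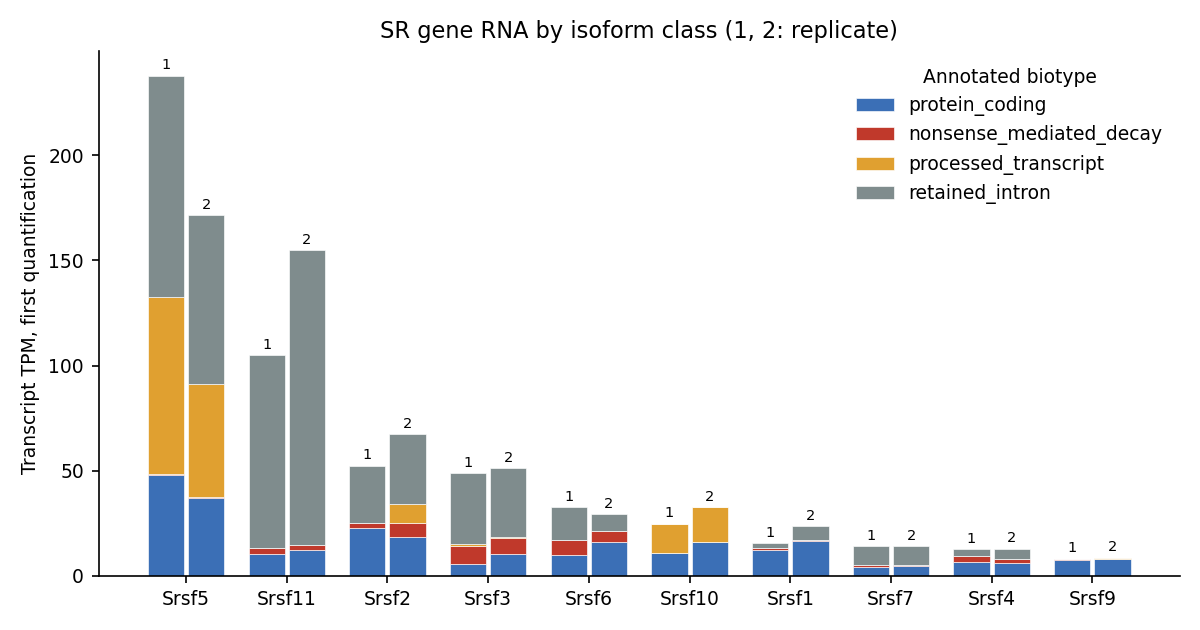
Stacked bars of transcript TPM (vertical axis, first quantification) for each SR gene, with replicate 1 left of replicate 2 and colours for the annotated isoform class. Srsf5 and Srsf11 are the highest, and retained-intron isoforms form the largest block in both.

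Protein-coding isoforms held the smaller part of this RNA. Over the whole family, they carried 24.97% of transcript TPM in replicate 1 and 25.6% in replicate 2. Isoforms labelled retained_intron carried 52.2% in replicate 1 and 55.7% in replicate 2. Isoforms labelled processed_transcript, which have no annotated reading frame, carried 18.0% and 14.2% in replicates 1 and 2. The NMD label covered only 4.78% in replicate 1 and 4.54% in replicate 2. In nuclear RNA, reads of unspliced precursor can be placed only on isoforms whose annotation includes those intronic bases, and the part of such reads in these shares was not tested.

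Gene by gene, the non-coding share was taken as the part of the TPM, in percent, on transcripts of any label but protein_coding. Its median over the 10 members was 61.1% (63.0% in replicate 1 and 60.5% in replicate 2), beside 35.7% over the 7123 genes with at least 1 TPM in both libraries, a coding and a non-coding transcript. The share was above 50% in both libraries in 6 of 10 members, beside 23.5% of those 7123 genes. Counting only the retained-intron and NMD labels, 4 of 9 members were above 50% in both, beside 19.3% of 5978 genes. The non-coding share was above 75% in both in 3 members, Srsf11, Srsf3 and Srsf5, beside 5.41% of the genes. The second quantification gave a member median of 66.1%, beside 50.02% over 7003 genes, with 8 of 10 members above 50% in both libraries, beside 44.1%. By expected counts, in which long isoforms weigh more than in TPM, the member median was 55.9%, beside 19.4%, and 5 of 10 members were above 50%, beside 15.6%. The members also have more annotated transcripts, a median of 7.5, beside 6.0 over the 7123 genes. Among the 6017 genes with at least 4 transcripts, the fewest any member has, the median share was 38.7%. Among the 3445 genes with at least 7 transcripts it was 44.8%, beside 73.9% over the 6 members with as many. Of those 3445 genes 33.3% were above 50% in both libraries, beside 5 of the 6 members.

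**Figure D2:**
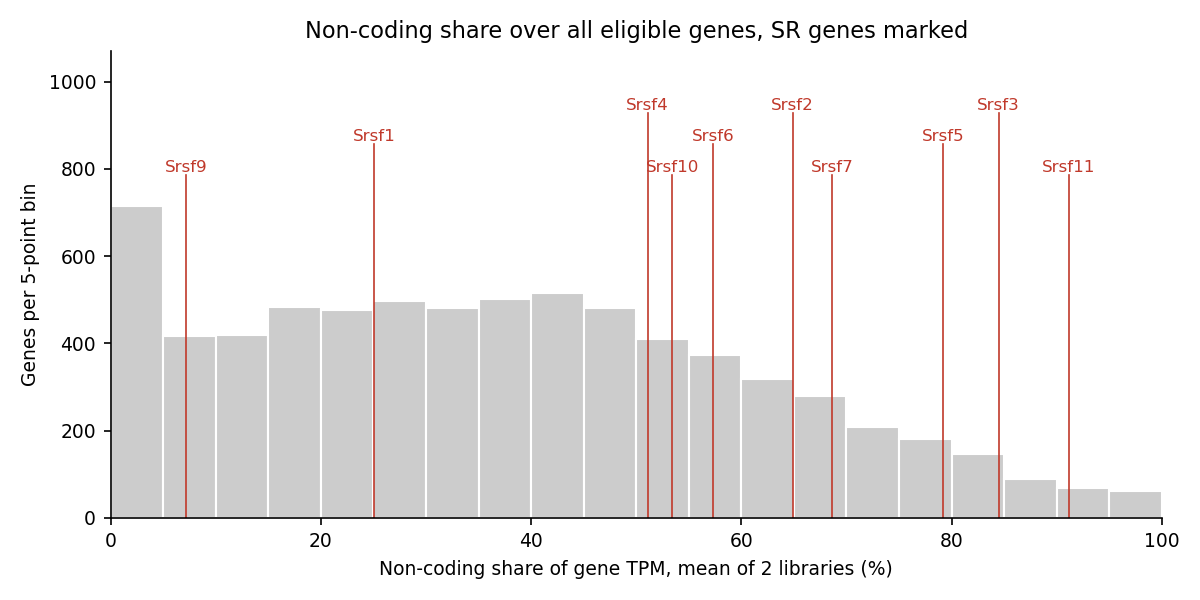
Histogram of the non-coding share of gene TPM (horizontal axis, percent, mean of both libraries) over 7123 eligible genes, in bins of 5 points, with a red line at each SR gene. Srsf9 and Srsf1 lie below the median of 35.7% and the other 8 members above it.

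The share by class showed where the members stood. The retained-intron share had a median of 48.0% over the 8 members with such an isoform, beside 30.9% over 5524 genes. The NMD share had a median of 4.57% over 9 members, beside 3.92% over 2695 genes, so the medians lay close together. For processed_transcript isoforms the medians were 6.78% over 5 members and 5.97% over 4106 genes. These 2 medians lay further apart by the other measures. They were 39.8% and 19.6% by the second quantification, and 6.78% and 0.99% by expected counts. Between the replicates, the non-coding share of a member differed by a median of 5.21 percentage points, beside 6.93 points over all eligible genes.

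**Figure D3:**
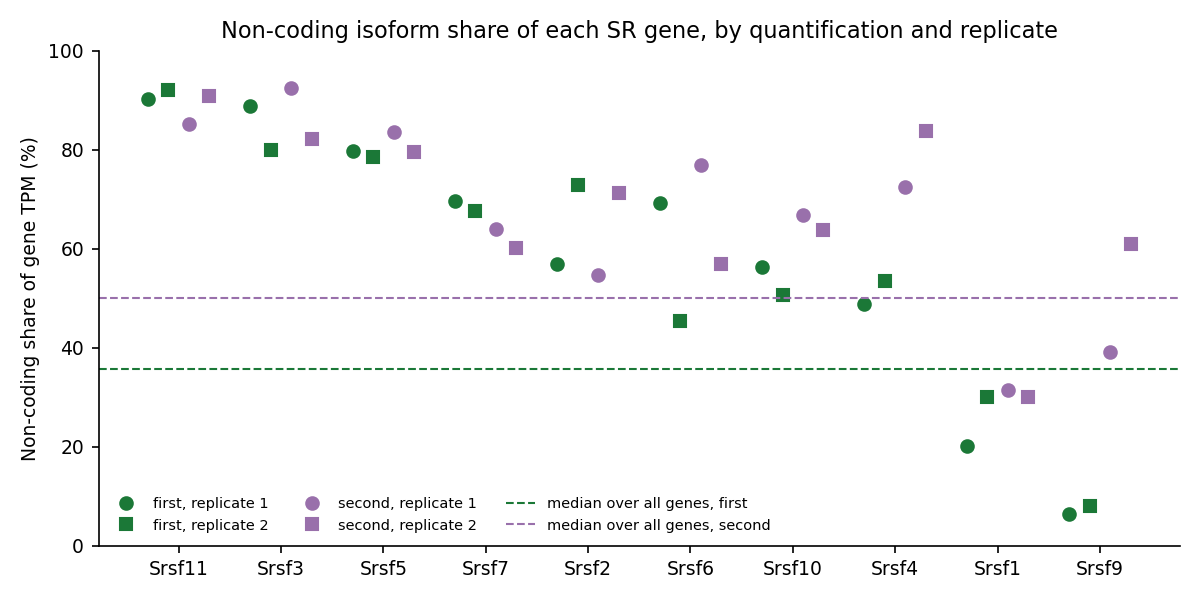
Non-coding share of gene TPM (vertical axis, percent) for each SR gene in the first (green) and second (purple) quantification, with circles for replicate 1, squares for replicate 2 and dashed lines at the median over all eligible genes. Srsf11, Srsf3 and Srsf5 stay above 75% at every point, whereas Srsf4 and Srsf9 sit higher in the second quantification.

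Srsf1, Srsf3 and Srsf7 are the SR proteins best known for shuttling to the cytoplasm as adaptors of mRNA export. Srsf3 had the clearest poison exon of these 3. Its coding isoform Srsf3-202 had 5.40 TPM in replicate 1 and 10.2 in replicate 2. The NMD isoform Srsf3-201 includes the 456-nt exon whose start is printed above. With that exon it is 2594 nt long, and Srsf3-202 is 2618 nt long without it, so they also differ elsewhere. Srsf3-201 had 8.93 TPM in replicate 1 and 7.77 in replicate 2. It was thus above the coding isoform in replicate 1 and below it in replicate 2. The most abundant Srsf3 isoform by both quantifications in both libraries was Srsf3-204, with 15.0 TPM in replicate 1 and 15.6 in replicate 2. It is labelled retained_intron, keeps introns 3 and 4 whole and so contains the same exon. Together, isoforms with the whole exon held 49.1% of Srsf3 TPM in replicate 1 and 45.9% in replicate 2 (mean 47.5% ± 2.27, SD, n = 2), and the second quantification gave 43.2% and 44.0%. The processed_transcript Srsf3-209 had 0.87 and 0.23 TPM in replicates 1 and 2, and 4.72 and 1.35 TPM by the second quantification. The non-coding share of Srsf3 was 84.5% ± 6.27 (SD, n = 2).

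The label retained_intron does not say that an intron is complete. Srsf3-210, a single exon that starts near the gene start and reads into intron 1, had 8.88 TPM in replicate 1 and 10.9 in replicate 2. Srsf3-205, which starts inside intron 3, had 9.64 TPM in replicate 1 and 6.27 in replicate 2. Both are labelled retained_intron, yet neither holds a complete intron of the coding reference. Over all members, 8 of the 26 retained-intron isoforms hold a complete intron of the coding reference, and these 8 carried 59.3% of retained-intron TPM in replicate 1 and 46.2% in replicate 2.

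**Figure D4:**
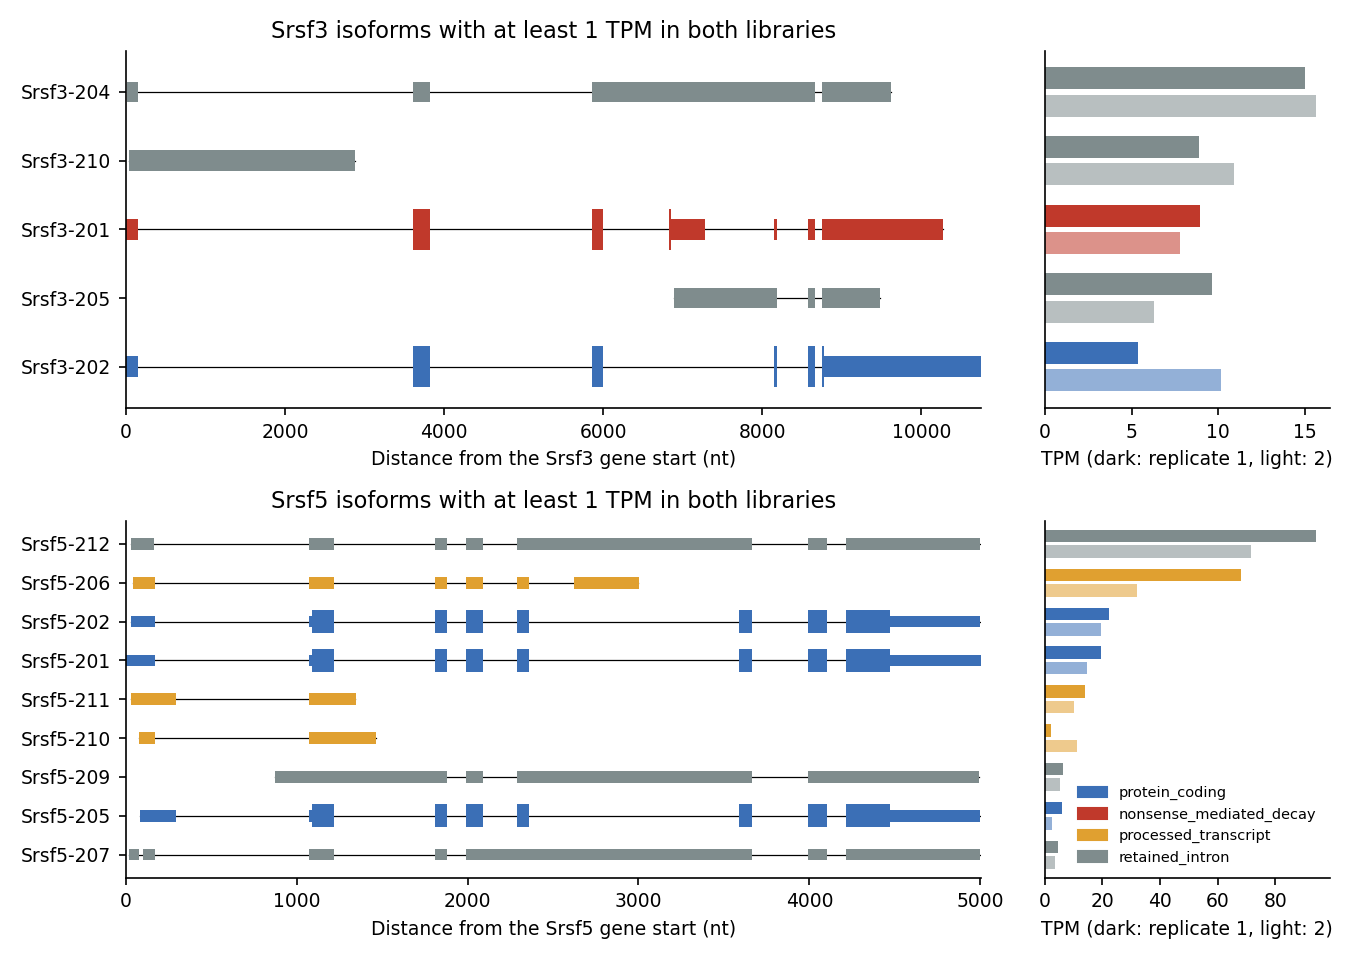
Exon maps of the Srsf3 and Srsf5 isoforms with at least 1 TPM in both libraries (horizontal axis, nt from the gene start, thick boxes coding), with their TPM in replicate 1 (dark) and replicate 2 (light) at right. The 456-nt exon of Srsf3-201 and the 376-nt last exon of Srsf5-206 lie within the long exons of the top retained-intron isoforms Srsf3-204 and Srsf5-212.

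Srsf7, which also carries a zinc knuckle, repeated the Srsf3 layout at a lower level. Its coding isoform Srsf7-201 had 2.61 TPM in replicate 1 and 3.79 in replicate 2. The NMD isoform Srsf7-203 had 0.74 TPM in replicate 1 and 0.53 in replicate 2. The isoforms Srsf7-207, with 4.97 and 6.19 TPM in replicates 1 and 2, and Srsf7-206, with 2.75 and 2.06 TPM, keep intron 3 whole, the 874-nt intron that contains the poison exon. These 3 isoforms held 62.0% ± 1.56 of Srsf7 TPM, and 43.2% ± 2.19 by the second quantification (SD, n = 2). Of the first of these shares, the NMD label covered 8.75% in replicate 1 and 6.04% in replicate 2. The non-coding share of Srsf7 was 68.6% ± 1.44, and 62.0% ± 2.64 by the second quantification (SD, n = 2).

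Srsf1, the founding member of the family, was on the coding side, with a non-coding share of 20.1% in replicate 1 and 30.1% in replicate 2. Its most abundant isoform in every column was Srsf1-201, labelled protein_coding, with 8.24 TPM in replicate 1 and 9.17 in replicate 2. This isoform keeps a complete 196-nt intron of the coding reference and encodes 201 codons in place of 248, so a kept intron here counts as coding. The coding reference Srsf1-205 had 4.07 TPM in replicate 1 and 7.34 in replicate 2. The retained-intron isoform Srsf1-203 had 0.92 TPM in replicate 1 (95% credibility interval from 0.0659 to 2.02) and 6.17 TPM in replicate 2 (3.54 to 8.39), and these intervals do not overlap. The NMD isoform Srsf1-204 had 0.76 TPM in replicate 1 and 0.64 in replicate 2. By expected counts the non-coding share of Srsf1 was 4.70%, since its non-coding isoforms are short.

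Srsf4, Srsf5, Srsf6 and Srsf9 carry a second RNA recognition motif, as Srsf1 does. Srsf5 was the largest source of SR gene RNA, and little of it was coding. Its retained-intron isoform Srsf5-212 had 94.2 TPM in replicate 1 and 71.7 in replicate 2. This isoform keeps the 1229-nt intron 5 with the poison exon inside it. Srsf5-206, which ends in that exon, had 68.2 TPM in replicate 1 and 32.2 in replicate 2. The main coding isoforms were lower, Srsf5-202 at 22.4 TPM in replicate 1 and 19.6 in replicate 2, and Srsf5-201 at 19.7 TPM in replicate 1 and 14.7 in replicate 2. Srsf5-212 and Srsf5-206 were thus above every coding isoform in both libraries.

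Isoforms with the whole Srsf5 exon held 72.9% of Srsf5 TPM in replicate 1 and 65.6% in replicate 2, and 71.8% and 63.4% by the second quantification. None of them is labelled NMD. The only NMD isoform of the gene, Srsf5-208, lacks the exon and had 0.34 TPM in replicate 1 and 0.73 in replicate 2. The non-coding share of Srsf5 was 79.2% ± 0.89 (SD, n = 2). Of the 31-base words of Srsf5 transcripts, 14.1% also occur in transcripts of other genes, most of them in the processed pseudogene Gm12966, so reads could be split between them.

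Srsf6 had the largest gap between the replicates in the non-coding share of the first quantification. The retained-intron isoform Srsf6-204, which keeps the 1283-nt intron 2 with the poison exon, had 15.6 TPM in replicate 1 and 8.26 in replicate 2. The coding isoform Srsf6-203 had 9.88 TPM in replicate 1 and 15.6 in replicate 2. The NMD isoform Srsf6-201, with the printed exon spliced in, had 6.92 TPM in replicate 1 and 5.07 in replicate 2. Srsf6-204 was therefore the top isoform in replicate 1 and Srsf6-203 in replicate 2, in both quantifications. The non-coding share was 69.1% in replicate 1 and 45.4% in replicate 2, a gap of 23.7 points, above the 90th percentile of 20.8 points over all eligible genes.

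Srsf4 had similar amounts of coding and other isoforms. The coding isoform Srsf4-202 had 6.47 TPM in replicate 1 and 5.99 in replicate 2, the retained-intron isoform Srsf4-201 had 3.30 and 4.81 TPM, and the NMD isoform Srsf4-204 had 2.43 and 1.40 TPM. The non-coding share was 51.1% ± 3.34, but 78.2% ± 8.03 by the second quantification (SD, n = 2). The main non-coding isoforms use exons of intron 1, which spans 17336 nt. The unconfirmed transcript A930004J17Rik lies within the span of the gene on the same strand for 4610 nt, introns included. It had 7.92 TPM in replicate 1 and 16.5 in replicate 2. Srsf4 transcripts share 0 words of 31 bases with transcripts of other genes on that strand, and an exchange of reads was not tested.

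Srsf9 was the only member with nearly all of its TPM on coding isoforms in the first quantification, and the value hung on the method. Srsf9-201 had 7.42 TPM in replicate 1 and 5.31 in replicate 2, and the coding isoform Srsf9-204 had 0.10 and 2.58 TPM. The processed_transcript isoform Srsf9-202 had 0.29 and 0.68 TPM and the NMD isoform Srsf9-205 had 0.23 and 0 TPM in replicates 1 and 2. The non-coding share was 7.20% ± 1.04 by the first quantification and 50.01% ± 15.4 by the second (SD, n = 2). Its gene counts, 371 in replicate 1 and 184 in replicate 2, were the lowest of the family.

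Srsf2 is a constituent of nuclear speckles and is known to promote exon inclusion. Its main isoform in every column was Srsf2-203, which keeps the 1059-nt intron 2, with 27.2 TPM in replicate 1 and 33.2 in replicate 2. The coding isoform Srsf2-201 had 18.9 TPM in replicate 1 and 16.8 in replicate 2. The main NMD isoform Srsf2-204, which contains no intronic base, had 2.63 TPM in replicate 1 and 6.81 in replicate 2. Intron 2 lies after the coding part of the reference, so here the kept intron and the extra 104-nt exon of Srsf2-202 do not cut the reading frame, and Srsf2-202 has the full 221 codons. Srsf2-202 was at 0 TPM in both libraries. The same exon is part of Srsf2-206, labelled protein_coding with 221 codons, at 3.73 TPM (replicate 1) and 1.5 TPM (replicate 2). The second quantification put Srsf2-206 at 1.32 and 0.89 TPM. Its RNA therefore counts on the coding side of the Srsf2 share. The processed_transcript Srsf2-205 was at 0 in replicate 1 and 9.14 TPM in replicate 2 (95% credibility interval 1.45 to 14.9).

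The non-coding share of Srsf2 was 56.8% in replicate 1 and 72.9% in replicate 2. The antisense neighbour Mfsd11 overlaps Srsf2 by 655 nt and had 19.5 TPM in replicate 1 and 17.1 in replicate 2. Mettl23, also antisense, overlaps it by 3194 nt, the whole gene, and had 2.10 TPM in replicate 1 and 4.95 in replicate 2. These lengths are of whole gene spans, introns included, and the overlap of exons was not measured. Whether counting used strand is not given in the sources used here, so some reads of these genes and of Srsf2 may have been exchanged.

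Srsf10 and Srsf11 are less typical members, and Srsf10 is known as a splicing repressor in its dephosphorylated form. In Srsf11, 19 transcripts are annotated and 11 are labelled retained_intron, and these held 87.5% of its TPM in replicate 1 and 90.7% in replicate 2. The highest was Srsf11-208, with 27.4 TPM in replicate 1 and 40.1 in replicate 2, followed by Srsf11-213, with 27.0 and 21.8 TPM, and Srsf11-203, with 14.3 and 32.3 TPM. None of the 11 holds a complete intron of the coding reference. They end or start inside introns, or use exons within them.

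The coding isoforms of Srsf11 were low, with Srsf11-202 highest at 4.03 TPM in replicate 1 and 8.55 in replicate 2. The coding reference Srsf11-204 had 1.90 and 0.84 TPM. The NMD isoform Srsf11-206, with the printed exon, had 1.20 TPM in replicate 1 and 2.06 in replicate 2. A second NMD isoform with the same exon, Srsf11-210, differed between the quantifications. It had 1.00 and 0 TPM in the first and 6.30 and 16.8 TPM in the second. The NMD share of Srsf11 was accordingly 2.07% ± 1.05 in the first and 14.6% ± 2.11 in the second (SD, n = 2). The non-coding share was the highest of the family in the first, 91.1% ± 1.22, and 88.0% ± 4.04 in the second (SD, n = 2).

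Srsf10 has no transcript labelled retained_intron or NMD, and its non-coding RNA was all on 6 processed_transcript isoforms. The highest was Srsf10-207, with 9.77 TPM in replicate 1 and 7.08 in replicate 2. The highest coding isoform was Srsf10-204, with 5.65 TPM in replicate 1 and 7.96 in replicate 2. It encodes 262 codons, against 183 in the coding reference Srsf10-205, which had 2.14 and 3.98 TPM. The non-coding share was 53.4% ± 4.02 by TPM (SD, n = 2) and 22.4% by expected counts, Srsf10-207 being 717 nt long and Srsf10-204 3058 nt. Of the 31-base words of Srsf10, 10.8% also occur in other genes' transcripts, as do 13.8% of those of Srsf3. Srsf1, Srsf4, Srsf6 and Srsf9 share none. The reverse strand was not searched.

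The bases of the poison exons can be followed across labels in the 5 genes whose sequences are printed above. The stop was read in frame only in the printed isoforms. Isoforms with the whole exon, 16 in all, held 244.9 TPM in replicate 1 and 192.5 in replicate 2. That was 55.9% (replicate 1) and 45.7% (replicate 2) of the summed TPM of Srsf3, Srsf5, Srsf6, Srsf7 and Srsf11. The second quantification gave 54.5% and 47.3%. Only some of these isoforms have the exon spliced in as a separate exon. Those held 19.9% (replicate 1) and 11.3% (replicate 2) of that summed TPM, with 22.7% and 17.5% for the second quantification. Counting all isoforms with the whole exon, Srsf11 had the lowest share of the 5 genes, 15.7% (replicate 1) and 22.2% (replicate 2). Its second quantification gave 24.5% and 32.8%. Of the exon-containing RNA of the 5 genes, 64.5% in replicate 1 and 75.3% in replicate 2 carried the retained-intron label. There the exon lies inside a longer one, and the part of unspliced precursor was not tested. The processed_transcript label covered 27.9% in replicate 1 and 16.7% in replicate 2, all of it Srsf5-206. The NMD label covered 7.67% in replicate 1 and 8.01% in replicate 2, and 12.4% and 20.8% by the second quantification. The NMD part differed between the genes. It was 37.3% in replicate 1 and 33.2% in replicate 2 of the exon-containing RNA of Srsf3, and 30.8% and 38.0% of that of Srsf6, with 50.1% for Srsf6 in replicate 2 by the second quantification. In Srsf11 it was 13.4% in replicate 1 and 5.99% in replicate 2, but 50.8% and 48.7% by the second quantification. The pooled sum rests largely on Srsf5, which has no NMD-labelled isoform with the exon and gave 173.6 of the 244.9 TPM in replicate 1 and 112.6 of the 192.5 TPM in replicate 2.

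Of the 85 transcripts, 44 had at least 1 TPM in both libraries, and 39 did so by both quantifications. At 0 TPM in both libraries were 11, and 9 of these were at 0 in the second quantification too. Of the 15 NMD transcripts, 5 had at least 1 TPM in both libraries. The same isoform was highest in both libraries and both quantifications in 7 of 10 members. The exceptions were Srsf4, Srsf6 and Srsf10.

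Between the replicates, no member differed by more than 2-fold in TMM-scaled counts, where 13.4% of 14831 genes did. Beyond 1.5-fold was 1 member, Srsf5, beside 33.8% of the genes. For Srsf5 the log2 ratio, replicate 2 over replicate 1, was -0.80 (95% counting interval -0.84 to -0.76), from 18654 counts in replicate 1 and 7294 in replicate 2. It was the lowest of the family. It stayed below 0, between -0.96 and -0.47, by every scaling of counts and by TPM of the first quantification. By TPM of the second quantification Srsf5 was nearly level, at 97.7 in replicate 1 and 99.9 in replicate 2. Srsf6 was at -0.41 (-0.49 to -0.34) and also below 0 by every scaling of counts and by TPM of the first quantification. Its TPM of the second quantification was higher in replicate 2, at 16.7 beside 12.4 in replicate 1. Srsf10 was highest at 0.36 (0.26 to 0.45), but at -0.06 by TPM rescaled over protein-coding and long non-coding genes. Srsf1 was at 0.21 by TMM and at -0.02 by the second quantification. The member median was -0.23, beside 0.01 over all genes and -0.05 over protein-coding genes, with 8 members below 0 and 2 above. This split turned with the scale. By the ratio of TPM, whose median over all genes was 0.36, 8 members were above 0. By counts of the second quantification 9 were below 0. No member kept its direction by every measure, Srsf5 and Srsf6 being below 0 by all but TPM of the second quantification.

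**Figure D5:**
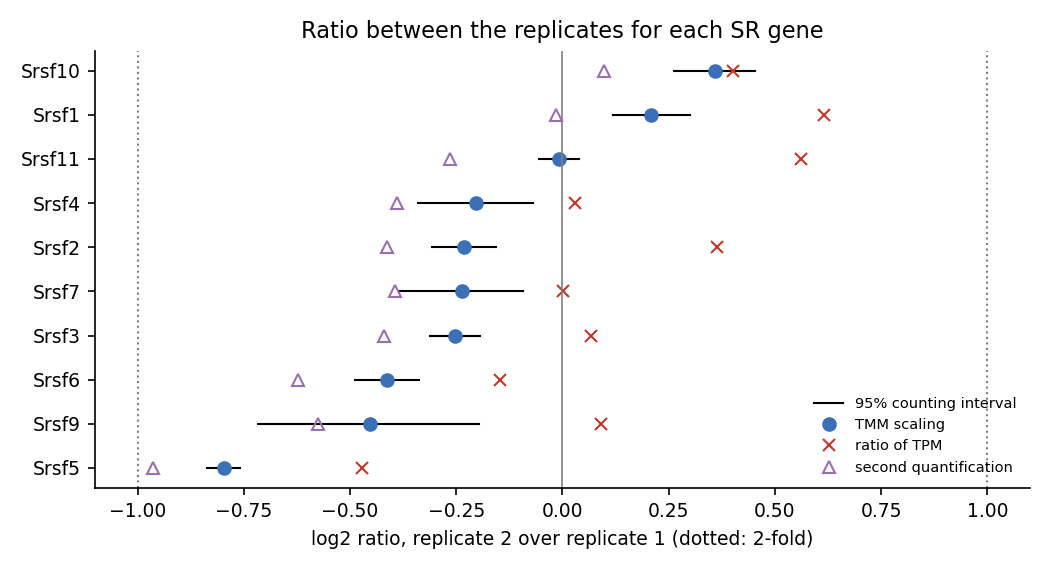
Log2 ratio of replicate 2 over replicate 1 (horizontal axis) for each SR gene by TMM-scaled counts with 95% counting intervals (blue), by TPM (red) and by counts of the second quantification (purple). All points lie inside the dotted 2-fold lines, with Srsf5 lowest and Srsf10 highest by TMM.

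Genes that act with SR factors were followed through 6 companion lists. Of 20 SR-related proteins, 19 had at least 1 TPM in both libraries, with a median level of 49.7 TPM. Their median non-coding share was 59.8%, and 13 of 19 were above 50% in both libraries, beside the 23.5% of all eligible genes. The highest levels were those of Rbm39, a splicing coactivator, at 248 ± 29.4 TPM, Son, a speckle scaffold, at 151 ± 7.86 TPM, and Luc7l2, a U1 snRNP partner, at 151 ± 49.1 TPM (SD, n = 2). Tra2a, a splicing activator with its own poison exon, had a non-coding share of 82.8% ± 13.2, and U2af1, which reads the 3′ splice site, had 82.2% ± 4.85 (SD, n = 2). Srsf12 was listed at 0 TPM in both libraries.

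The kinases that phosphorylate SR proteins were also rich in non-coding isoforms. Of 9 kinases 8 had at least 1 TPM in both libraries, their median share was 65.5%, and 7 of 8 were above 50%. Over all eligible genes the median share was 35.7%, and 23.5% were above 50% in both libraries. Clk1 had 79.7 TPM in replicate 1 and 79.0 in replicate 2 with a share of 79.5% ± 5.94, and Clk2 had the highest share, 86.9% ± 9.45 (SD, n = 2). Clk4 and Prpf4b had 34.0 ± 1.17 and 30.6 ± 0.91 TPM, whereas Srpk3 had 0.41 ± 0.04 TPM (SD, n = 2).

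The remaining groups had lower median shares. Among SR protein import and mRNA export factors, 7 of 8 had at least 1 TPM in both libraries. The median share was 50.9%, and 3 of 7 were above 50%, beside 23.5% of all eligible genes. Nxf1, the mRNA export receptor, was highest at 109 ± 12.2 TPM, followed by Ddx39b at 76.6 ± 4.73 TPM and Thoc2 at 30.2 ± 4.81 TPM, with Nxt1 lowest at 0.94 ± 0.29 TPM, and Thoc1 had the highest share, 90.2% ± 3.61 (SD, n = 2). The 10 NMD factors all had at least 1 TPM in both libraries, at a median of 6.42 TPM. Their median share was 32.4%, and 3 of 8 were above 50%, beside the same 23.5%. Smg1, the kinase of the pathway, was highest at 44.5 ± 11.3 TPM, Smg9 had 14.5 ± 1.70 TPM, Smg6 was lowest at 3.24 ± 0.06 TPM, and Smg9 and Smg5 had the highest shares, 64.2% ± 0.48 and 62.1% ± 5.47 (SD, n = 2).

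The 5 exon junction complex genes had a median share of 46.1% and a median level of 6.63 TPM. Above 50% was 1 of 5, beside 23.5% of all eligible genes. Casc3 at 14.4 ± 2.69 TPM and Eif4a3 at 10.6 ± 1.47 TPM were highest, Magoh was lowest at 3.47 ± 0.30 TPM, and Rbm8a had the highest share, 59.1% ± 6.45 (SD, n = 2). The 8 genes of nuclear RNA decay had a median level of 14.8 TPM. Their median share was 44.7% over 7 genes, and 2 of 7 were above 50%, beside the same 23.5%. Zfc3h1, of the polyA exosome targeting connection, had 43.7 ± 13.1 TPM and a share of 61.6% ± 13.0, Pabpn1 and Rbm26 had 33.9 ± 6.98 and 21.1 ± 4.02 TPM, Exosc10 had a share of 49.9% ± 13.9, and Dis3 was lowest at 2.10 ± 1.12 TPM (SD, n = 2). No tested gene of these 6 groups differed beyond 2-fold between the replicates, beside 13.4% of all genes. Whether the groups differ from one another was not tested.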

How the data were processed

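Ribosomal RNA-depleted total RNA of 2 libraries was quantified on mm10 with the GENCODE M21 annotation, per the file headers. In the first quantification the deposited tables give expected counts (estimated counts), TPM and bounds of a 95% credibility interval, with column names that RSEM writes. The deposited percent of each isoform (its share of gene TPM) was not used. The authors' second tables give estimated counts and TPM per transcript, with column names that kallisto writes, and these were summed per gene. Not stated by labels or headers are the aligner, versions and strandedness. Rows that name no gene (0.766% of counts in replicate 1 and 0.272% in replicate 2) were left out.

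Expected counts were rounded and scaled by TMM (factors 0.944 and 1.06, edgeR 4.0.16, R 4.3.3) over genes averaging 10 or more counts, with a prior count of 0.5, and DESeq2 1.42.0 size factors were an alternative. Counting intervals are exact binomial 95% intervals (Clopper-Pearson) and cover counting error only. The ratio step was checked on simulated counts. Shares used Python 3.11.15 and pandas 2.3.3 over genes with at least 1 TPM in both libraries, a coding and a non-coding transcript. Exon structure came from the M21 annotation, whose build, GRCm38, is that of mm10. Shared sequence was counted in 31-base words, read in the direction of the transcripts only.

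Named are all 10 members, their highest transcript in each label, and of each companion list the 3 highest and the lowest gene by TPM and the 2 with the highest share among genes of at least 5 TPM. Of the genes this rule names, 1 is not reported here. Further isoforms, the exon search, the 75% share given with its background and the subsets by transcript number were chosen after values were seen. Members and lists were chosen with earlier results of these data known. No significance test was run.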

Additional observations from a re-analysis of the deposited data

How the results depend on the processing

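The summed TPM of the SR genes, 559 TPM, was 303 TPM by the second quantification, 546 TPM by the posterior mean and 1920 TPM when TPM was rescaled over protein-coding and long non-coding genes. The median non-coding share, 61.1%, was 66.1% by the second quantification, 55.9% by expected counts and 57.3% when only retained-intron and NMD isoforms were counted as non-coding, and between 60.5% and 63.0% with a replicate left out. The median NMD share, 4.57%, was 8.68% by the second quantification, beside 7.36% over the eligible genes. By expected counts it was 2.21%, beside 2.01%. It lay between 3.81% and 5.02% with a replicate left out. The median retained-intron share, 48.0%, was 46.5% by the second quantification, beside 35.9% over the eligible genes. By expected counts it was 59.4%, beside 18.2%. It lay between 48.1% and 49.8% with a replicate left out. The 6 members above 50% in both libraries became 3 at a threshold of 75% and 4 when only retained-intron and NMD isoforms were counted. Leaving out a replicate gave 7 members above 50% either way, and summed TPM between 551 and 566 TPM. The count beyond 2-fold, 0, became 1 at 1.5-fold. For these moves the cause was not tested, apart from those that follow from the threshold or class itself.

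Depth and the lone group limit what can be said: Srsf9 had 184 counts in replicate 2, isoform levels rest on how reads are split among overlapping models, and 2 libraries give an SD but no test. No paired analysis was possible because both libraries belong to 1 group.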
